A study of Mus musculus with 6 samples.

Results

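Airway secretory proteins are the products that club, goblet and gland cells release onto the surface of the conducting airways, and 10 genes for them were examined in lung tumors of mice. They were found by gene symbol in the deposited tables of counts, where they are 10 of 31130 genes. The set comprised the secretoglobins Scgb1a1, Scgb3a1, Scgb3a2 and Scgb1c1, the BPI-fold proteins Bpifa1 and Bpifb1, the mucins Muc5b and Muc1, the iron-binding protein Ltf and the WAP-domain protein Wfdc2. The rule that names them uses no measured value, although earlier results of these data were known when it was written.

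Tumor tissue came from 6 wild-type female C57BL/6 mice that were 6 to 8 weeks old at the start. All 6 received cells of an EGFP-expressing Lewis lung carcinoma (LLC) line, a mouse lung cancer line, in the left lung on day 14, and the tumors were taken on day 21. The 3 mice of the IP + LC group (interstitial pneumonia and lung cancer) had been given bleomycin, an agent that injures the lung epithelium and leads to fibrosis, at 2.0 mg/kg by aspiration through the mouth, and the 3 mice of the LC group had been given saline by the same route. No library of healthy lung or of lung with bleomycin alone was among the 6, and the LLC cells and the mouse's own lung cells were not separated. The comparison therefore asked how tumor tissue that grew in a bleomycin-treated lung differed from tumor tissue that grew in a saline-treated lung.

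Each RNA molecule was tagged at its 3′ end with a unique molecular identifier (UMI), a random sequence that lets copies of the same molecule be counted once, so that counts of different genes can be compared without dividing by transcript length. The libraries held 1336919 to 1631066 UMIs, except LC replicate 1, which held 592733. Levels are in CPM, the count of a gene divided by the total of its library and scaled to 1000000 UMIs. In LC replicate 1, a level of 3 UMIs corresponded to 5.06 CPM before scaling, against 1.84 to 2.24 CPM in the other libraries. This library also stood apart from the other LC libraries. Its correlation with them over the tested genes was 0.799 and 0.840, whereas LC replicates 2 and 3 had a correlation of 0.962 with each other. With the IP + LC libraries its correlation was 0.796 to 0.822, about the same range. The changes, shares, ratios and most lists are therefore also given without it. Lists and ratios to lists without it were added after seeing the data. Levels below are CPM after TMM scaling, as mean ± SD over 3 tumors, and changes are log2 fold changes of the IP + LC group against the LC group with their standard error (SE). The labels name separate tumors but do not say whether they were handled in separate batches, so the p-values measure the spread between these samples.

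Secretoglobins are small secreted proteins, of which Scgb1a1 (CC10, uteroglobin) is the classical marker of club cells, the dome-shaped secretory cells that line the small airways of the mouse and renew the airway epithelium after injury. BPI-fold proteins bind bacterial lipids, and Bpifa1 (SPLUNC1) also acts as a surfactant and regulates the sodium channel of the airway. Muc5b is the gel-forming mucin of normal mouse airway mucus, whereas Muc1 is tethered to the cell membrane and is also made by alveolar cells. Lactoferrin, the product of Ltf, is stored in neutrophil granules as well as secreted by glands, and Wfdc2 (HE4) belongs to a family with many protease inhibitors.

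The genes lie on 7 chromosomes (GRCm38 coordinates, GENCODE release M21). Bpifa1 (chr2:154142880-154149219, plus strand) and Bpifb1 (chr2:154190818-154220369, plus strand) are neighbours with 41.6 kb between them, and Wfdc2 (chr2:164562413-164568510) is on the same chromosome. Scgb1a1 is at chr19:9083636-9087958 on the minus strand, Scgb3a1 at chr11:49663610-49665118, Muc1 at chr3:89229057-89233381, Ltf at chr9:111019271-111042767 and Muc5b at chr7:141839070-141873084. The exons of these genes overlap no other annotated gene. Scgb1c1 (chr7:140845547-140846769) shares 18.7% of its exonic length with C330022C24Rik on the opposite strand. Because the strand setting of the counting is not given in the sources used here, reads of Scgb1c1 and of this neighbour cannot be told apart in that stretch.

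Promoter sequences are shown for 5 of the genes because the set was measured together with the transcription factors that are known to act on airway promoters. RefSeq windows on GRCm38.p6 were scanned for 7 of the 10 genes, and each runs from 250 bases before the start site to 50 bases after it. Scgb1a1, Scgb3a2 and Muc5b were left out of the scan. The motif counts below therefore say nothing about these genes, Scgb3a2 included. Capitals mark matches on either strand to 4 motifs. The forkhead motif was searched as TGTTTAC. For the NKX2-1 core the letters were CTCAAG, which read CTTGAG in a match on the minus strand. The C/EBP motif was TTGCNNAA, and its only match is on the minus strand. The TATA box was searched as TATAAA. No match overlapped another.
Scgb3a1 (chr11:49663345-49663644, plus strand): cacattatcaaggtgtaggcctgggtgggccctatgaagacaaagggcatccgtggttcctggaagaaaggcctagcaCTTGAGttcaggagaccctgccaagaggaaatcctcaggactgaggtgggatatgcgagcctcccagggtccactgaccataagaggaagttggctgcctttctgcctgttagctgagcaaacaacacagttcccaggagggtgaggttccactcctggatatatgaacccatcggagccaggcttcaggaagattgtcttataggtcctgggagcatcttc
Bpifa1 (chr2:154142630-154142929, plus strand): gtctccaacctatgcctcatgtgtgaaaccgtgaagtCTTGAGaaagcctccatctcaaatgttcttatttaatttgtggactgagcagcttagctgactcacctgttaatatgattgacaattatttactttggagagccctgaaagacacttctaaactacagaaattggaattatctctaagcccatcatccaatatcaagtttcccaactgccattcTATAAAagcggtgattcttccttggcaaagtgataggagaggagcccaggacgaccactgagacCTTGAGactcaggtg
Bpifb1 (chr2:154190568-154190867, plus strand): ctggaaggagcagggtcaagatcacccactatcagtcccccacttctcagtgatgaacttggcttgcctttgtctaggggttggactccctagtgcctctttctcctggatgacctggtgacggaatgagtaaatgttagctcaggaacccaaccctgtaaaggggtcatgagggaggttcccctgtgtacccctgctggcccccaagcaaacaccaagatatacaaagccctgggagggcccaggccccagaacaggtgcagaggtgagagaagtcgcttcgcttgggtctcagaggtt
Muc1 (chr3:89228806-89229105, plus strand): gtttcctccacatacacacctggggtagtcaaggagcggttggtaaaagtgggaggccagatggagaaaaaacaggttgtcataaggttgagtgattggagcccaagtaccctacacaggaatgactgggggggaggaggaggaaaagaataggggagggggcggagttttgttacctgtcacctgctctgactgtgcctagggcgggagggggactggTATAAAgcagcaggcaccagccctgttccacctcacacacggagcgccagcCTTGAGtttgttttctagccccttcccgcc
Ltf (chr9:111019042-111019341, plus strand): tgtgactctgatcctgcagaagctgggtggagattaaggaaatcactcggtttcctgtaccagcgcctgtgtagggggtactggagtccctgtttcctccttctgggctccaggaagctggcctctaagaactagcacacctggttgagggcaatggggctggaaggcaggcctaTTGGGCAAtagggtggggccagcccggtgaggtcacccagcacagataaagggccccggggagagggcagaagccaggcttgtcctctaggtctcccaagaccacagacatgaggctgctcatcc

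The NKX2-1 core was present in the windows of 4 of the 7 genes, and 15.9% of all 32851 promoter windows held it. The former counts genes, each once even with several windows, and the latter counts windows, and no enrichment was tested. In Scgb3a1 it lay at positions -172 to -167 from the start site, in Bpifa1 at -213 to -208 and at 36 to 41, in Muc1 at 21 to 26 and in Scgb1c1 at -147 to -142. A TATA box stood at -29 to -24 in Bpifa1 and at -31 to -26 in Muc1, whereas the share over all windows was 13.6%. Ltf had the only C/EBP match, TTGGGCAA at -75 to -68, a motif held by 10.8% of windows. The forkhead motif, which 3.65% of windows hold, was found in none of the 7, and the windows of Bpifb1 and Wfdc2 held none of the 4 motifs. A match describes letters in a window and does not show that a factor binds there.

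All 10 genes were downregulated in the IP + LC group. By the quasi-likelihood test of edgeR, with p-values adjusted over 11240 tested genes by the Benjamini-Hochberg method and a limit of 0.1, 10 of 10 were lower and 0 were higher, where 19.6% of all tested genes were lower and 16.8% were higher. At an unadjusted p below 0.05 the count was again 10 lower and 0 higher, and DESeq2 also gave 10 and 0. In all 10 the highest IP + LC tumor was below the lowest LC tumor, which was so for 21.5% of tested genes. Scaled by library size in place of TMM, 1800 genes were lower and 2520 higher, against 2203 and 1885, and 10 of the 10 were again lower. The median log2 fold change was -2.56 for the 10 genes and 0.02 for all tested genes. Scgb1c1 passed the filter on low counts through the LC group alone, which favored a lower call, so its call is weak support. The other 9 reached at least 10 UMIs in every library. Without LC replicate 1, 10 of 10 were again lower, where 28.7% of 11748 tested genes were lower and 28.3% higher, so that counts without this library are read against a larger background.

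**Figure D1:**
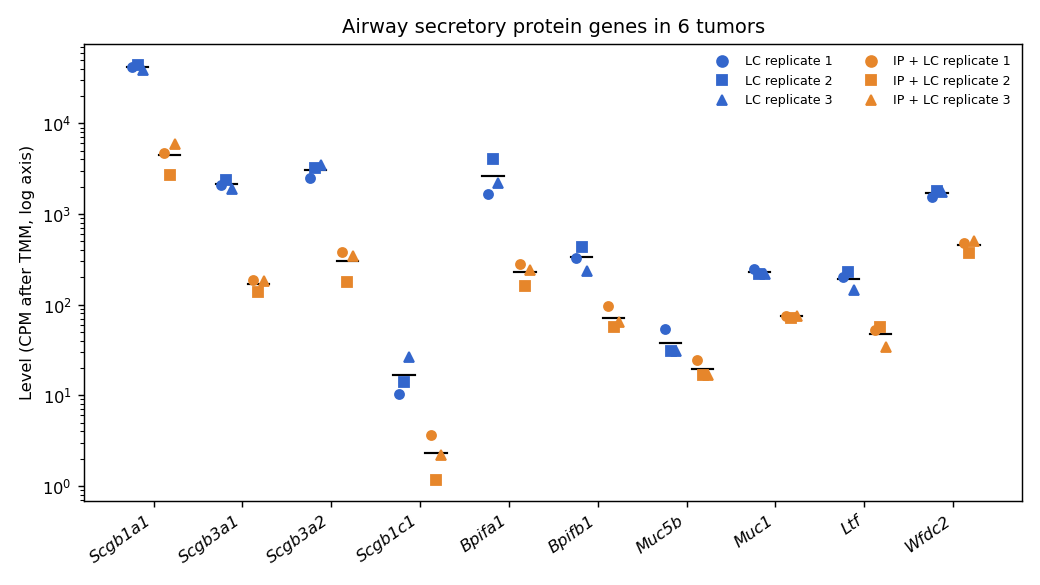
Levels of the 10 genes in each tumor, in CPM after TMM scaling on a log axis. Points are single tumors of the LC group (blue) and the IP + LC group (orange), black lines are group means, and for each gene the 3 orange points lie below the 3 blue points.

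The genes made up a large part of the RNA of the LC tumors. Together they held 4.93%, 5.24% and 4.20% of all UMIs in LC replicates 1 to 3 and 0.647%, 0.393% and 0.764% in IP + LC replicates 1 to 3. The groups were far apart, with means of 4.79% ± 0.534 and 0.601% ± 0.190 (SD, n = 3 each). Most of this was Scgb1a1, which ranked 1, 1 and 2 among all genes in the LC libraries and 10, 17 and 10 in the IP + LC libraries. Without Scgb1a1 the LC tumors held 0.952% ± 0.166 and the IP + LC tumors 0.141% ± 0.0268. Over LC replicates 2 and 3 alone, the means were 4.72% with and 1.00% without Scgb1a1. The shares are given as values, with no test.

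**Figure D2:**
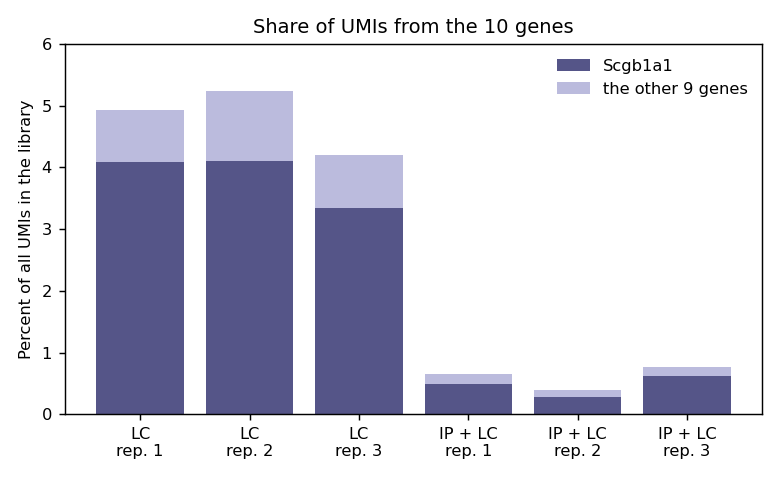
Percent of all UMIs in each library that came from Scgb1a1 (dark) and from the other 9 genes (light). The 3 LC bars reach 4.20% to 5.24% and the 3 IP + LC bars 0.393% to 0.764%.

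Scgb1a1, the club cell marker, was the most abundant of the 10 in every tumor. Its level was 41682, 44321 and 38371 CPM in LC replicates 1 to 3 and 4722, 2678 and 5962 CPM in IP + LC replicates 1 to 3. The LC tumors were close to each other, and IP + LC replicate 2 was the lowest of all 6. The mean fell from 41458 ± 2981 to 4454 ± 1658 CPM, 9.31-fold lower (log2 fold change -3.22, SE 0.38, adjusted p = 0.00113). With 10-base UMIs, at most 2.72% of Scgb1a1 molecules in a library were lost because different molecules drew an equal UMI, a loss that was larger in the LC group.

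Scgb3a1, a secretoglobin of the larger airways, had the largest fold change of the set. It was measured at 2104, 2369 and 1881 CPM in the LC tumors and at 187, 139.5 and 184 CPM in the IP + LC tumors. This was a 12.5-fold lower mean, 2118 ± 244 against 170.1 ± 26.5 CPM (log2 fold change -3.64, SE 0.24, adjusted p = 0.000354), and it had the third smallest p of all 11240 tested genes. Scgb3a1 ranked 27 to 38 among all genes in the LC libraries and 797 to 1210 in the IP + LC libraries. Without LC replicate 1, Bpifa1 had the larger change (log2 fold change -3.77 against -3.64).

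Scgb3a2, a secretoglobin of club cells whose expression depends on the factor NKX2-1, held 2511, 3228 and 3448 CPM in the LC tumors and 382, 179 and 345 CPM in the IP + LC tumors. As for Scgb1a1, IP + LC replicate 2 was the lowest tumor. Scgb3a2 fell 10.1-fold, from 3062 ± 490 to 302 ± 108 CPM (log2 fold change -3.34, SE 0.33, adjusted p = 0.000857).

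Scgb1c1, a secretoglobin known from the olfactory and nasal mucosa, was near the detection limit. It was counted with 6, 18 and 31 UMIs in the LC tumors and 5, 2 and 3 UMIs in the IP + LC tumors. The raw counts of LC replicate 1 and IP + LC replicate 1 were 1 UMI apart, although the former library was less deep, and 2 of the 3 IP + LC tumors were at or below 3 UMIs. Pooled over tumors and scaled by library size, the ratio of the IP + LC to the LC group was 0.140 with an exact 95% interval of 0.0638 to 0.278, which covers counting error only. The fitted log2 fold change was -2.92 (SE 0.52, adjusted p = 0.00478). Without LC replicate 1, the 4 secretoglobins had log2 fold changes of -3.21 for Scgb1a1, -3.64 for Scgb3a1, -3.46 for Scgb3a2 and -3.10 for Scgb1c1. The other secretoglobins of the mouse listed beside them were represented by 1 gene in the tables, Scgb1b27, with 1 UMI in 1 tumor.

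Of the BPI-fold proteins, Bpifa1 had a fold change within the range of the secretoglobins. It reached 1660, 4025 and 2216 CPM in the LC tumors and 281, 161 and 241 CPM in the IP + LC tumors. The LC tumors differed widely in this gene, with LC replicate 2 the highest, yet the groups did not overlap. The mean fell from 2634 ± 1237 to 228 ± 61.2 CPM, 11.6-fold lower (log2 fold change -3.53, SE 0.39, adjusted p = 0.000918).

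Its neighbour Bpifb1 (LPLUNC1), a longer protein of the family, was measured at 327, 429 and 237 CPM in the LC tumors and 95.7, 56.6 and 63.9 CPM in the IP + LC tumors. LC replicate 2 was again the highest. The decrease was 4.60-fold, from 331 ± 96.1 to 72.1 ± 20.8 CPM (log2 fold change -2.20, SE 0.30, adjusted p = 0.00157). Without LC replicate 1, the log2 fold changes were -3.77 for Bpifa1 and -2.21 for Bpifb1. Among 16 other members of the family, 7 were in the tables, and both that could be tested were lower. Leaving out LC replicate 1 gave the same counts for this family and for the WAP-domain genes below, and 4 of 5 lower for the mucins below. The pair were Lbp, which carries lipopolysaccharide to its receptor (log2 fold change -1.03, adjusted p = 0.0114), and Pltp, a phospholipid carrier (-1.41, adjusted p = 0.0560), which passed the filter through the LC group alone.

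Muc5b changed least, and its call was the least stable. Its level was 53.4, 30.6 and 30.5 CPM in the LC tumors and 24.7, 16.9 and 16.7 CPM in the IP + LC tumors. LC replicate 1, the library of low depth, was the highest and rested on 31 UMIs. The mean was 1.88-fold lower, 38.1 ± 13.2 against 19.4 ± 4.53 CPM (log2 fold change -0.91, SE 0.30, adjusted p = 0.0507). Leaving out LC replicate 1 gave a log2 fold change of -0.65 (adjusted p = 0.0485). The call was lost without IP + LC replicate 2 (-0.81, adjusted p = 0.188) and without IP + LC replicate 3 (-0.80, adjusted p = 0.161).

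Muc1, the membrane-bound mucin, had the smallest standard error of the fitted changes in the set. It was measured at 248, 219 and 217 CPM in the LC tumors and 75.4, 71.8 and 75.5 CPM in the IP + LC tumors. The tumors of each group lay within a narrow band, and the means were 228 ± 17.5 CPM (LC) and 74.2 ± 2.12 CPM (IP + LC). Muc1 was thus 3.06-fold lower (log2 fold change -1.61, SE 0.19, adjusted p = 0.0011), and -1.54 without LC replicate 1. Muc5ac, the gel-forming mucin that is induced in goblet cell metaplasia, had 1 to 3 UMIs in every tumor and could not be tested, so a difference was not detectable at this depth. Among 15 other mucins and mucin-like proteins, 4 were tested and 3 were lower, all of them broadly expressed or endothelial sialomucins and adhesion proteins. They were Cd164 (-0.46, adjusted p = 0.0959), Mcam (-1.15, adjusted p = 0.00351) and Emcn (-2.24, adjusted p = 0.00137). Muc4, the remaining tested gene, overlapped between the groups (-0.11, adjusted p = 0.836).

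Ltf, which sequesters iron from bacteria, stood at 199.7 CPM in LC replicate 1, 231 in replicate 2 and 146 in replicate 3, and at 52.9, 56.6 and 34.1 CPM in the IP + LC tumors. Replicate 3 was the lowest in each group. The mean was 3.99-fold lower, 192 ± 43.2 against 47.9 ± 12.1 CPM (log2 fold change -2.0, SE 0.27, adjusted p = 0.00157). Since lactoferrin is also a neutrophil granule protein, 18 neutrophil genes were examined beside it. Of the 11 tested, 4 were lower and 1, Itgam, was higher, beside 19.6% and 16.8% of all tested genes. The median log2 fold change was -0.29. Without LC replicate 1, 5 were lower and 3 higher (median -0.43), beside 28.7% and 28.3% of all tested genes. The summed level was 2367 to 3597 CPM in the LC tumors against 933 to 1043 CPM in the IP + LC tumors. Most of that sum came from Chil3 (-2.46), which alveolar macrophages also express, S100a9 (-2.66) and Lcn2, which did not pass the test (0.24, adjusted p = 0.571). The other lower genes were S100a8 (-2.39, adjusted p = 0.00563) and Retnlg (-2.70, adjusted p = 0.000859), and all 4 were without overlap. Csf3r was not called (-0.23, adjusted p = 0.653). Camp and Ngp, which share the secondary granules with lactoferrin, had 0 to 9 UMIs in any tumor. Elane and Mpo had at most 1, and Ltf had 47 to 295 UMIs. The part of neutrophils in the change of Ltf was not tested.

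Wfdc2 had the smallest fold change of the 5 most abundant genes. It reached 1539, 1810 and 1730 CPM in the LC tumors and 481, 376 and 497 CPM in the IP + LC tumors. The tumors agreed closely within each group. The mean was 3.75-fold lower, 1693 ± 139 against 452 ± 66.0 CPM (log2 fold change -1.91, SE 0.22, adjusted p = 0.000995). Without LC replicate 1, the log2 fold changes were -1.96 for Ltf and for Wfdc2 alike. Of 21 other WAP-domain and related inhibitor genes, 6 were tested and 4 were lower, among them Slpi, an airway inhibitor of neutrophil elastase (-1.78, adjusted p = 0.00277), and Spint2, a Kunitz-type inhibitor of epithelial serine proteases (-1.73, adjusted p = 0.00374). Wfdc17 overlapped between the groups (-0.45, adjusted p = 0.365). Of the 4 lower genes of this list, 2 passed the filter through the LC group alone, which favored their calls.

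**Figure D3:**
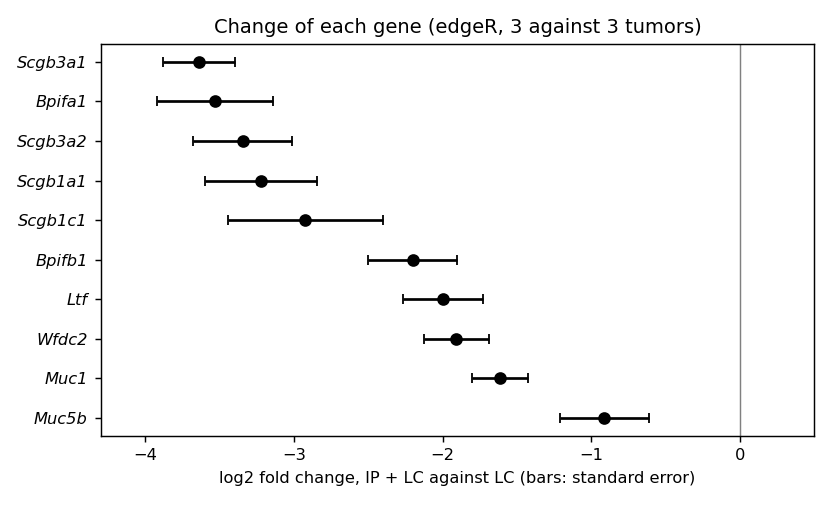
Log2 fold change of each gene in the IP + LC group against the LC group, with its standard error as bars, from edgeR on 3 against 3 tumors. Scgb3a1 at -3.64 and Muc5b at -0.91 mark the ends of the range.

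The decreases were unequal, and the order of the genes changed. In the LC group, Scgb1a1 was followed by Scgb3a2, Bpifa1 and Scgb3a1, then Wfdc2, then Bpifb1, Muc1 and Ltf, then Muc5b and Scgb1c1. Within the runs Scgb3a2 to Scgb3a1 and Bpifb1 to Ltf, neighbours had overlapping ranges over the tumors, and elsewhere they did not. In the IP + LC group Wfdc2 moved from the fifth to the second place, although its range overlapped that of Scgb3a2, and Muc1 moved ahead of Bpifb1 with overlapping ranges. Wfdc2 supplied 3.06% to 3.58% of the UMIs of the 10 genes in the LC tumors and 6.70% to 10.1% in the IP + LC tumors.

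To compare the decreases within each tumor, every gene was set against Scgb1a1 of the same library. Relative to 1000 UMIs of Scgb1a1, Scgb3a1 held 50.5, 53.5 and 49.0 UMIs in the LC tumors and 39.6, 52.1 and 30.8 in the IP + LC tumors, which overlapped. Scgb3a2, Bpifa1 and Scgb1c1 overlapped as well, with differences of the log2 ratio between the groups of -0.11, -0.17 and 0.56. For Scgb3a1 this difference was -0.35. Exact permutation p-values for these 4 genes were 0.3 to 0.9, and the sign turned for Scgb3a2 and Bpifa1 when single tumors were left out.

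For the other 5 genes the ratio to Scgb1a1 was higher in all 3 IP + LC tumors than in all 3 LC tumors. Wfdc2 held 36.9, 40.8 and 45.1 UMIs per 1000 UMIs of Scgb1a1 in the LC tumors and 102, 140.4 and 83.4 in the IP + LC tumors. Muc1 held 5.95, 4.93 and 5.65 against 16.0, 26.8 and 12.7. The mean log2 ratio was higher by 1.38 for Wfdc2, 1.68 for Muc1, 1.29 for Ltf, 1.1 for Bpifb1 and 2.35 for Muc5b. Each had an exact two-sided permutation p of 0.1, the smallest that 3 against 3 tumors can give, and an adjusted p of 0.18 over the 9 ratios, a design in which no ratio could have passed a limit of 0.05. Over the 5 tumors other than LC replicate 1 the differences were 1.31, 1.74, 1.32, 1.11 and 2.62 in the same order, again without overlap. These directions held when each tumor was left out in turn.

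**Figure D4:**
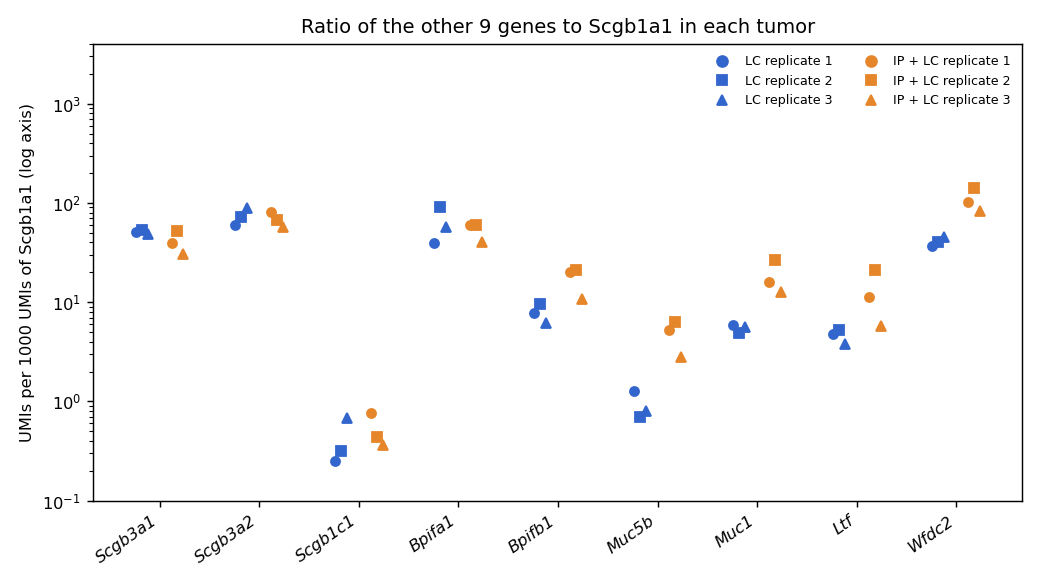
UMIs of each gene per 1000 UMIs of Scgb1a1 in the same tumor, on a log axis. Scgb3a1, Scgb3a2, Scgb1c1 and Bpifa1 overlap between the groups, whereas the 3 IP + LC tumors (orange) lie above the 3 LC tumors (blue) for Bpifb1, Muc5b, Muc1, Ltf and Wfdc2.

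The profiles over the 6 tumors, as log2(CPM + 4) centred per gene, were then compared. By Euclidean distance, Scgb1a1 was nearest to Scgb3a2 among the 10 (0.544) and Muc1 nearest to Wfdc2 (0.582), and the largest distance was that between Muc5b and Bpifa1 (3.54). Outside the set, the genes nearest to Scgb1a1 were Sln (0.493), Fmo1 (0.619), Lypd2 (0.694), Cbr2 (0.746) and Tmem100 (0.837). Nearest to Muc1 were Notum (0.219), Chst3, Apbb1, Wscd1 and Serpinb1a, and nearest to Ltf were Cstdc2 (0.407), Bvht, Prickle2, Ppp1r1b and Tagln. The offset of 4 CPM compresses changes of genes near the floor, so a small distance can join unequal changes. Notum, with 1.45 to 1.75 CPM in the IP + LC tumors, had a log2 fold change of -2.77 and Cstdc2 of -3.04, larger than those of Muc1 and Ltf. These distances over 6 tumors are a description, with no test.

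Other genes of the airway and alveolar epithelium were lower as well. Some of them, like Scgb1c1, passed the filter (7.41 CPM) through the group where they are high alone, which favored their calls. These were 6 called genes of the club cell list, and 3 each of the ciliated, goblet and general epithelial lists. Among the regulators there were 4, Foxa1 included, and among the genes for mucin glycosylation and release 4. Such a pass did not fix the outcome, since 1 tested club cell gene that passed through the LC group alone was not called. Of 20 further club cell genes, all were tested, 18 were lower, with a median log2 fold change of -2.38 (18 lower, 1 higher and a median of -2.58 without LC replicate 1). They included Cbr2, a carbonyl reductase (-2.95, SE 0.39, adjusted p = 0.00149), and Cyp2f2, the cytochrome that activates naphthalene in club cells (-3.07, SE 0.45, adjusted p = 0.00221), whereas Retnla did not pass the test (0.02, adjusted p = 0.990). The summed level of this list was 11491 to 16323 CPM in the LC tumors and 2152 to 3745 CPM in the IP + LC tumors. Of the ciliated cell list 13 of 20 genes were tested and 13 were lower, with a median of -2.16 (17 of 17 and -2.04 without LC replicate 1) and sums of 1021 to 1378 against 222 to 309 CPM. The most abundant were Tppp3 (-2.55), Ccdc153 (-2.42) and Dynlrb2 (-2.38).

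Markers of the other secretory cells were scarce. In the goblet cell list 5 of 15 genes were tested and 4 were lower (median -2.37), but Clca1, the most abundant, had 147 UMIs in LC replicate 1 and 7 to 13 in every other tumor, so that its groups overlapped. Tff2, a trefoil peptide of mucous cells and the next in abundance, had 51, 83 and 64 UMIs in the LC tumors and 11, 11 and 13 in the IP + LC tumors, without overlap (-3.09, adjusted p = 0.000721), although it passed the filter through the LC group alone. Creb3l1 did not pass the test (-0.34, adjusted p = 0.346). The list depended on that library, and without it 2 of 5 genes were lower with a median of -0.84. Spdef, the factor that drives goblet cells, had 0 to 5 UMIs. In the list for serous gland cells 2 genes were tested. Pigr, which carries IgA across the epithelium, was lower (-1.56, adjusted p = 0.00482), and Sox9, which cartilage and progenitor cells also express, was higher (1.95, adjusted p = 0.00408) but passed the filter through the IP + LC group alone. The basal cell markers Krt5, Krt14 and Trp63 had 0 to 21 UMIs, and the only tested gene of their list, Pdpn, was not called (-0.16, adjusted p = 0.791), but was lower without LC replicate 1 (-0.46).

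Among alveolar genes, 13 of 14 type 2 cell genes were lower (median -1.73), of which the most abundant were Sftpc (-2.11), Sftpa1 (-2.54) and Sftpb (-1.94), and 10 of 12 type 1 cell genes were lower (median -1.43), with Ager (-1.84), Cav1 (-1.76) and Hopx (-2.28) the most abundant. Without LC replicate 1, 14 of 14 (median -1.88) and 11 of 12 (median -1.59) were lower. The list of general epithelial genes had a smaller median change. Of 12 tested, 10 were lower, with a median of -0.92 (10 lower and 1 higher of 13, and -0.90, without LC replicate 1) and sums of 1118 to 1270 against 611 to 771 CPM. Krt19 was lower (-1.59, adjusted p = 0.00336), as was Krt7 with overlapping groups (-0.79, adjusted p = 0.0737), whereas Krt8 overlapped between the groups (0.31, adjusted p = 0.463). In these bulk samples, fewer cells of a type and less RNA per cell cannot be told apart, and the part of the cell composition in the decrease of the 10 genes was not tested.

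**Figure D5:**
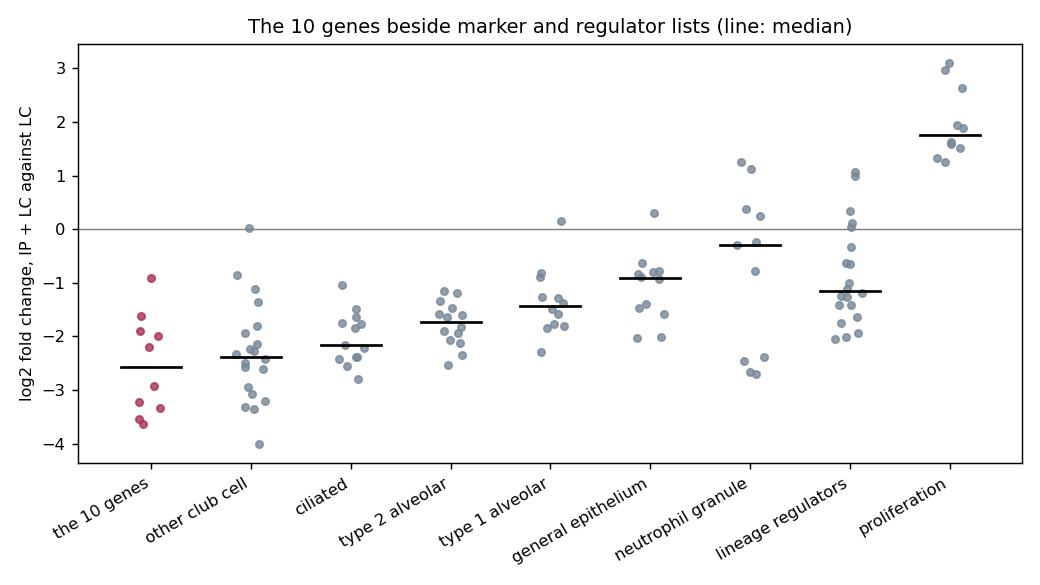
Log2 fold changes, IP + LC against LC, of the 10 genes (red) and of the tested genes of 8 lists (grey), with the median of each as a black line. The median is -2.56 for the 10 genes, -2.38 for other club cell genes, -2.16 for ciliated cell genes and -0.92 for general epithelial genes.

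Ratios to these lists, which were added after seeing the data, set the 10 genes against the summed counts of each list in the same tumor. LLC cells and lung cells were not separated, so a sum need not come from lung epithelium alone. Per 1000 UMIs of the ciliated cell list, Scgb1a1 held 40820, 32161 and 28229 UMIs in the LC tumors and 15289, 12042 and 19688 in the IP + LC tumors. Scgb1a1, Scgb3a1, Scgb3a2 and Bpifa1 were lower in every IP + LC tumor relative to ciliated cell genes, by log2 differences of -1.12, -1.47, -1.23 and -1.29. Bpifb1, Ltf and Scgb1c1 overlapped between the groups. Muc5b (1.23), Muc1 (0.56) and Wfdc2 (0.26) were higher relative to that list in every IP + LC tumor.

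Against the other club cell genes, the same 4 genes were lower in every IP + LC tumor, with log2 differences of -1.08 for Scgb1a1, -1.43 for Scgb3a1, -1.19 for Scgb3a2 and -1.26 for Bpifa1, and the other 6 overlapped. Per 1000 UMIs of that list, Scgb1a1 held 3627, 2715 and 2705 UMIs in the LC tumors and 1417, 1244 and 1592 in the IP + LC tumors. The list sum includes Retnla, which did not fall. It held 705, 1203 and 1597 of the 4595, 3687 and 5157 list UMIs in IP + LC replicates 1 to 3. In LC replicates 1 to 3 it held 1004, 346 and 427 of 6673, 20834 and 16738. Cbr2 and Cyp2f2, the most abundant of the list, had log2 fold changes of -2.95 and -3.07, near the -3.22 of Scgb1a1. Ratios without Retnla were not taken. Against type 2 cell genes Scgb1a1 differed by -1.19 and Wfdc2 overlapped (0.19). A change of list shifts the difference of every gene by the same amount, so the order of the genes is fixed and only the level and the overlap can vary. Over the 5 tumors other than LC replicate 1, Scgb1a1 differed by -0.97 from ciliated, -0.94 from club and -1.09 from type 2 cell genes. The club cell sum again includes Retnla. In these 5 tumors Scgb1a1, Scgb3a1, Scgb3a2 and Bpifa1 were again lower than all LC tumors against each list. In that comparison Muc5b, Muc1 and Wfdc2 were also above the LC tumors against club cell genes, Muc1 above and Scgb1c1 below them against type 2 cell genes. Against general epithelial genes 9 of the 10 were lower in every IP + LC tumor, and Muc5b overlapped (-0.12). Krt8, the most abundant gene of that list, was not lower (log2 fold change 0.31, adjusted p = 0.463). The smallest exact two-sided permutation p was again 0.1, the smallest that 3 against 3 tumors can give, and the smallest adjusted p over the 40 ratios was 0.16.

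Regulators of airway secretory cells were lower in part. Of 25 listed, 20 were tested, 10 were lower and 1 was higher (median -1.16), and 13 and 3 without LC replicate 1 (median -1.38). NKX2-1, the factor that sets lung epithelial identity and binds the promoters of secretoglobins and surfactant proteins, is encoded by Nkx2-1, which had 35, 122 and 129 UMIs in the LC tumors and 51, 46 and 69 in the IP + LC tumors (log2 fold change -1.25, SE 0.30, adjusted p = 0.0156). The forkhead factors were lower too, Foxa1 by a log2 fold change of -2.05 (adjusted p = 0.00563) and Foxa2 of -1.26 (adjusted p = 0.00444), as was Cebpa (-1.41, adjusted p = 0.00353). Cebpb, a relative of Cebpa that inflammation induces in many cells, was the higher one (1.06, adjusted p = 0.0188). Xbp1, a factor of secretory cells that plasma cells also use, did not pass the test (0.12, adjusted p = 0.762), and neither did Notch2 (0.99, adjusted p = 0.176), although its 3 IP + LC tumors were above the 3 LC tumors.

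Among 18 tested genes for mucin glycosylation and granule release, 8 were lower and 4 were higher (median -0.52). The counts were the same without LC replicate 1 (median -0.43). Of all tested genes, 19.6% were lower and 16.8% higher, and 28.7% and 28.3% without that library. Vamp8, a granule fusion protein, was lower (-0.83, adjusted p = 0.0225), Galnt1, an enzyme that starts O-glycosylation in many cell types, was higher (0.57, adjusted p = 0.0628), and Marcks did not pass the test (0.25, adjusted p = 0.578). Of 13 tested cytokines, receptors and growth factors known to act on airway mucus, 3 were lower and 2 were higher, near the 19.6% and 16.8% of all tested genes. Of these calls, 2 of the lower and 1 of the higher genes passed the filter through the group where they are high alone, which favored their calls. Without LC replicate 1, 3 and 6 of 15 were, beside 28.7% and 28.3% of all genes. Il33, an epithelial alarmin, was lower (-0.92, adjusted p = 0.0441), Il1b was higher with overlapping groups (1.04, adjusted p = 0.0477), and the receptor Il4ra did not pass the test (0.18, adjusted p = 0.607). Of 15 tested airway host defence genes outside the set, 10 were lower and 1 was higher (median -1.11), and 11 and 3 without LC replicate 1 (median -1.09). The higher gene and 1 of the lower genes, Tff2, passed the filter through the group where they are high alone, which favored their calls. Lyz2, the lysozyme of macrophages and type 2 cells, was lower (-1.11, adjusted p = 0.0127), as was the collectin Sftpd (-1.58, adjusted p = 0.00356).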

How the data were processed

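RNA of 3 LC and 3 IP + LC tumors was sequenced by bulk RNA barcoding and sequencing. The authors extracted the UMIs (10 nucleotides) with UMI-tools 1.1.1, trimmed the reads with Trim Galore 0.6.7, aligned them to GRCm38 with HISAT2 2.2.1, assigned them to genes with featureCounts 2.0.1 and counted every different UMI per gene. The deposited values are these counts without normalization. The strand setting and the annotation release are not given in the sources used here. From 592733 to 1631066 UMIs per library set the precision, and intervals and floors (3 UMIs) cover counting error only.

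Genes were kept by filterByExpr (minimum count 10, minimum total 15), which left 11240 of 31130. Libraries were scaled by TMM and compared by the quasi-likelihood test of edgeR 4.0.16 in R 4.3.3, without a replicate block, with Benjamini-Hochberg adjustment and a limit of 0.1, the limit the study used. Ratios between genes of 1 library were taken as log2 with 0.5 UMI added and compared by exact two-sided permutation tests. Gene coordinates came from GENCODE M21 and promoter windows from RefSeq. Alternatives were other scalings and filters, DESeq2 1.42.0, limma 3.58.1 (voom), a replicate block, a limit of 0.05, thinning to the smallest library, and each tumor left out. The procedure was tested on simulated data for this comparison. It found 184 of 200 genes changed by 2 on the log2 scale, with 25 false calls among 10930 genes. The false calls were a larger share of the calls than the limit of 0.1. With 200 genes changed, against 4088 called in the data, the simulation does not check the scaling under so many changes.

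The 10 genes and the 20 lists beside them were chosen with earlier results of these data known. Named from each list were up to 3 tested genes with the highest mean CPM, some of the defining markers of each cell type and 5 set regulators, and for Scgb1a1, Ltf and Muc1 the 5 tested genes with the nearest profile. Itgam, Elane, Mpo, Muc4 and Scgb1b27 were named after their values were seen.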

Additional observations from a re-analysis of the deposited data

How the results depend on the processing

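Of the 10 genes, 9 or 10 were called lower and 0 higher in all 17 alternatives. The count was 9 where Scgb1c1 fell under the filter (at least 10 UMIs in every library; thinned counts) and where Muc5b lost its call. The log2 fold changes of the 9 genes other than Muc5b kept their direction and stayed past the limit of each alternative that tested them. Muc5b lost its call at a limit of 0.05 and when libraries were scaled by the general epithelium list, a scaling added after seeing the data (log2 fold change -0.09, adjusted p = 0.828), as well as without IP + LC replicate 2 or 3. With that scaling the others ranged from -2.83 for Scgb3a1 to -0.79 for Muc1, and the median of all genes was 0.85. With library size only, that median was 0.18 and 1800 genes were lower and 2520 higher, against 2203 and 1885 with TMM.

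The number of genes called in all was 4088. It was 2413 with thinned counts, 7563 with the epithelium scaling, and 2265 to 6691 with single tumors left out. The 6691 came from leaving out LC replicate 1, whereas dropping LC replicate 2 gave 2585, IP + LC replicate 1 gave 2660 and IP + LC replicate 2 gave 2265. The cause was not tested. With the replicate block, 3410 genes were called, 10 of the 10 genes among them as lower. The correlations of same-numbered tumors were 0.026, -0.12 and 0.112, and not every tumor correlated best with its own number. The labels do not say whether same-numbered tumors were handled together, and these correlations cannot decide it. The difference in the share of UMIs from the 10 genes was -4.19 percentage points, and -0.810 without Scgb1a1. With single tumors left out, the log2 ratio of Scgb3a2 to Scgb1a1 ran from -0.25 to 0.038 and that of Bpifa1 from -0.46 to 0.13. The positive values were, for Scgb3a2, 0.038 when LC replicate 3 and 0.0066 when IP + LC replicate 3 was dropped, and for Bpifa1, 0.13 when LC replicate 2 and 0.015 when IP + LC replicate 3 was dropped. Scgb1c1 rests on 10 UMIs in the IP + LC group, so its depth limits its value. Counts without LC replicate 1, and often medians, stand beside most lists. The goblet cell list moved most in median among the airway and alveolar lists, from -2.37 to -0.84.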

Other observations

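Mesothelial and proliferation genes changed in opposite directions. Of 6 tested mesothelial genes, 6 were lower in the IP + LC group (median log2 fold change -2.20). Without Krt19, which is also a general epithelial gene, 5 of 5 were lower (median -2.30, a count added after seeing the data). Leaving out LC replicate 1 gave 7 of 7 lower (median -2.42), and 6 of 6 without Krt19 (median -2.61). The mesothelial genes included Msln and Gpm6a. Msln is a surface protein of the pleural lining (-0.92, adjusted p = 0.0343), and Gpm6a changed by -2.53 (adjusted p = 0.00336). Gpm6a and 1 other of these genes passed the filter on low counts through the LC group alone, which favored their calls. Of 10 proliferation genes, 8 were higher (median 1.75) by edgeR's quasi-likelihood test, and 10 without LC replicate 1 (median 2.95). The most abundant were Top2a, a topoisomerase of dividing cells (2.96, adjusted p = 0.0016), Cdk1, a mitotic kinase, and Cenpf, a kinetochore protein (3.10, adjusted p = 0.000859). Cdk1 did not pass the test (1.25, adjusted p = 0.221), with 98 UMIs in LC replicate 1 against 28 and 21 in the other LC tumors. The summed level of these 10 genes was 157 to 727 CPM in the LC tumors and 1289 to 1420 CPM in the IP + LC tumors.

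Iron-handling genes related to Ltf by family or function were also examined, and of 6 tested, 1 was lower (median -0.02), and 2 were lower and 2 higher of 7 without LC replicate 1 (median -0.09). The shares of all tested genes were 19.6% lower and 16.8% higher with and 28.7% and 28.3% without that library. The lower one was Trf, the plasma iron carrier (-0.99, adjusted p = 0.0118), and the ferritin chains Fth1 (0.24, adjusted p = 0.514) and Ftl1 (0.13, adjusted p = 0.671) did not pass the test. Among airway host defence genes, Nos2, the inducible nitric oxide synthase of activated macrophages, was the 1 gene that was higher (3.83, SE 0.66, adjusted p = 0.00411), with 1, 3 and 2 UMIs in the LC tumors and 27, 86 and 23 in the IP + LC tumors. It passed the filter on low counts through the IP + LC group alone, as did 3 of the 8 proliferation genes, which favored their calls. Nos2 was named after its values were seen.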
